A study of Homo sapiens with 4 samples.

Results

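Elastic fibres give skin, lung and vessel walls their recoil, and the genes described here encode their parts: the fibrillins FBN1 and FBN2, the fibulins FBLN1, FBLN2, FBLN5, EFEMP1 (fibulin-3) and EFEMP2 (fibulin-4), the latent TGF-beta binding proteins LTBP1 and LTBP2, and elastin (ELN). The 10 genes were chosen by name with the SOX2 siRNA responses known, because EFEMP1 was higher in LK2 and FBN2 lower in both lines with the siRNA. The platform annotation paired 9 of the 10 with 18 probes, and LTBP2 was not analysed here. These 9 genes stand among 18852 named genes on the array.

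Total RNA was hybridised to Illumina HumanHT-12 v3 BeadChips, on which beads carry oligonucleotide probes. H520 and LK2 are established lines of human lung squamous cell carcinoma, a cancer in which the region of the transcription factor gene SOX2 is often amplified. Each line was transfected with scrambled control siRNAs or with pooled siRNAs that target the SOX2 mRNA for degradation, and was harvested 48 h later. There were 4 groups (H520 control siRNA, H520 SOX2 siRNA, LK2 control siRNA and LK2 SOX2 siRNA) with 1 array each, so no response within a line has a replicate check and precision is limited by the array number. Values are the authors' log2 values, centred per probe on a reference that the sources used here do not give. They show differences between arrays, and no level of a gene can be read from them or set against that of another gene. Whether a member was detected on these arrays could not be read from them either, so a member with no difference may be silent. In bulk RNA, fewer cells that express a gene and less RNA per cell cannot be told apart.

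In an elastic fibre, fibrillins polymerise into microfibrils, which form the scaffold on which elastin is laid down. Fibulins link elastin to that scaffold and to the enzymes that crosslink it. Latent TGF-beta binding proteins hold TGF-beta in the matrix by tying its latent form to microfibrils. Fibroblasts and smooth muscle cells are the usual makers of these proteins, and carcinoma cells can express some of them.

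SOX2 itself stood below control in both lines treated with its siRNA, at 63.2% and 63.8% of control by its 2 probes in H520 and at 26.9% and 19.9% in LK2. Of the markers listed for squamous cells, 4 of 6 had a named probe, and since the values are centred their presence could not be checked. Those other than SOX2 differed with the siRNA by -0.14 to 0.02 in H520 and by 0.05 to 0.32 in LK2. None of the 8 fibroblast markers was past 1.5-fold with the siRNA, with differences between -0.20 and 0.16 in H520 and between -0.02 and 0.47 in LK2. Of all genes, 1.87% in H520 and 3.20% in LK2 were past 1.5-fold, so nothing is read from that count. The 4 endothelial markers lay between -0.30 and 0.15 in H520 and between -0.15 and -0.01 in LK2, and the 4 leukocyte markers between -0.04 and 0.21 and between -0.24 and 0.06.

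Promoter sequences are shown for the genes on which the results turn, FBN2 and FBLN2, and for LTBP1, whose window was the contrasting case in a search for SOX-type letters. They are RefSeq sequences of GRCh38.p14, 250 bases before to 50 bases after a transcription start, written 5′ to 3′ on the strand of the gene. Capitals mark CATTGT or CTTTGT, the letters that SOX proteins are known to favour, searched on both strands.
FBN2, chr5:128538196-128538495, minus strand: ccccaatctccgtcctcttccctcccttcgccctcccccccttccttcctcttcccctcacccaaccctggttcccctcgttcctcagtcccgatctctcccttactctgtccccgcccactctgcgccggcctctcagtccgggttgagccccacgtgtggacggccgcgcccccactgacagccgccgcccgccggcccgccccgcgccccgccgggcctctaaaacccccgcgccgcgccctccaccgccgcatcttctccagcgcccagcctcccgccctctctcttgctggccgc
FBLN2, upstream start, chr3:13548875-13549174, plus strand: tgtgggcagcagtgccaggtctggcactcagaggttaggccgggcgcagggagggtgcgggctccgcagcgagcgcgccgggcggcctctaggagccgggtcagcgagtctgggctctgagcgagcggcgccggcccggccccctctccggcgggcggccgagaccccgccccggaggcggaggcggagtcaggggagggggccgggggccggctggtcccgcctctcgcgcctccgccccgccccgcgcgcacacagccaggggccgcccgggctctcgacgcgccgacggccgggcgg
FBLN2, downstream start, chr3:13568490-13568789, plus strand: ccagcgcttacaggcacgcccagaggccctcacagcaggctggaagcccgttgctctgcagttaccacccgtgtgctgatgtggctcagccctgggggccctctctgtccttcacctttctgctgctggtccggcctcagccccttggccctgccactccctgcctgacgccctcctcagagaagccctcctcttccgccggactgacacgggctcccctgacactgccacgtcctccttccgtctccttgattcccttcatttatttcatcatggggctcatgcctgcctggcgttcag
LTBP1, chr2:33134346-33134645, plus strand: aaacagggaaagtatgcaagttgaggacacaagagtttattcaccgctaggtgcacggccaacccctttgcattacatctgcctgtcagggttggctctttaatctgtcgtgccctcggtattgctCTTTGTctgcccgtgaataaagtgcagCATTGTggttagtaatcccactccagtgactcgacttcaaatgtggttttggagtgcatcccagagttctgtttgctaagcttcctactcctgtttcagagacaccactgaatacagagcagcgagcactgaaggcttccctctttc
The FBN2 window held 0 matches, had a GC content of 72.7% and held 30 CpG dinucleotides. The FBLN2 windows also held 0 matches, with a GC content of 81.0% and 43 CpG at the upstream start and 63.3% and 12 CpG at the downstream start. The LTBP1 window held CTTTGT at position -124 and CATTGT at position -97 from the transcription start, and another LTBP1 window (chr2:32946703-32947002) held CTTTGT at position -234. Among 12 windows of 8 members, LTBP2 included, these 2 were the ones with a match. Over all 35116 windows of this length, 24.5% held at least 1 of the motifs, 10.8% CATTGT and 16.1% CTTTGT. A match is no evidence of binding, and its absence says only that these letters are not in the window. EFEMP1 and ELN had no entry in that table.

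FBN2, the fibrillin of developing tissues, was lower with SOX2 siRNA in both lines. Its 1 probe read 0.11 in H520 control, -0.88 in H520 SOX2 siRNA, 3.02 in LK2 control and 1.71 in LK2 SOX2 siRNA. The log2 difference, SOX2 siRNA minus control, was therefore -0.99 in H520 and -1.31 in LK2, which left 50.2% and 40.3% of the control value. Of all genes, 38 were lower still in H520 and 28 in LK2. In both lines the SOX2 siRNA array lay below the control array, while both LK2 arrays lay above both H520 arrays. FBN1, the main fibrillin of adult microfibrils and the gene mutated in Marfan syndrome, read -0.08, 0.11, 0.19 and 0.05 on the 4 arrays in the same order. Its differences were 0.19 in H520 and -0.14 in LK2, within the SD between probes of one gene in LK2 and just above it in H520. That SD, taken over 3934 genes with exactly 2 probes, was 0.18 in H520 and 0.21 in LK2 and is the only measure of spread within a line. It compares probes on the same arrays, so variation between cultures or transfections that moves both probes alike is not in it.

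EFEMP1, a secreted fibulin also known for a retinal dystrophy that its mutation causes, was higher with SOX2 siRNA in LK2 and not in H520. Its 1 probe read -0.21 in H520 control, -0.31 in H520 SOX2 siRNA, 0.42 in LK2 control and 3.95 in LK2 SOX2 siRNA. The log2 difference was 3.52 in LK2, an 11.5-fold higher value, and -0.10 in H520. The LK2 array with SOX2 siRNA alone was high, and the other 3 arrays lay within 0.74 of each other. In LK2, 1 of all genes had a larger increase, MYL10, while in H520 EFEMP1 stood at the 25.6th percentile of the differences. The difference between the lines in this response, 3.63, has no test, since each line gave 1 pair of arrays. SOX2 was also less reduced in H520, to 63.5% of control against 23.1% in LK2 as the mean of its probes. The lines were thus not equally depleted of SOX2 mRNA, and whether this bears on EFEMP1 was not tested.

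EFEMP2, a fibulin needed for elastic fibre assembly that binds lysyl oxidase, read -0.35 in H520 control, 0.01 in H520 SOX2 siRNA, -0.08 in LK2 control and 0.13 in LK2 SOX2 siRNA. Its differences of 0.36 and 0.21 had the same sign in both lines and stayed inside 1.5-fold. In H520 it was the member nearest to 1.5-fold among those that did not pass it, at 1.28-fold.

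**Figure D1:**
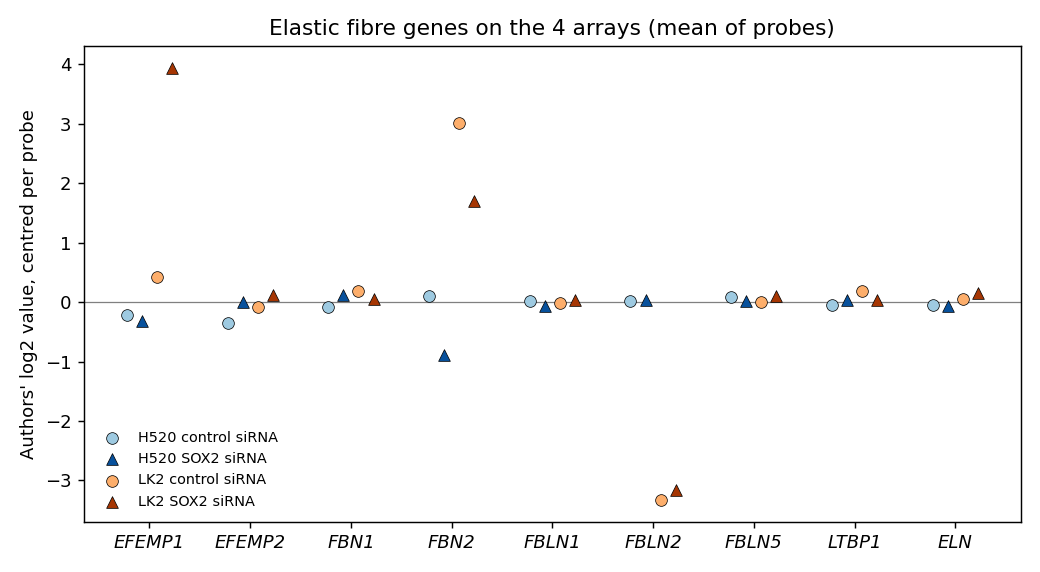
The authors' centred log2 value (vertical axis) of each of the 9 measured genes on the 4 arrays, as the mean of a gene's probes; circles are control siRNA, triangles SOX2 siRNA, blue H520 and orange LK2. EFEMP1 stands at 3.95 on the LK2 SOX2 siRNA array, both FBN2 triangles lie below their circles, and the LK2 values of FBLN2 lie at -3.33 and -3.17.

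The other fibulins differed little between SOX2 siRNA and control. FBLN2, a fibulin that binds fibrillin and elastin, had 3 probes, and its differences by probe were 0.09, 0.02 and -0.05 in H520 and 0.31, 0.05 and 0.12 in LK2. FBLN1, a fibulin of basement membranes and elastic fibres, had 5 probes, which ran from -0.31 to 0.11 in H520 and from -0.05 to 0.15 in LK2. Its transcripts have different 3′ ends, and the probes were annotated to 4 different accessions, so they need not measure the same transcripts. FBLN5, which links elastin to cells through integrins, was at -0.06 in H520 and 0.11 in LK2 as the mean of 2 probes.

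LTBP1, which stores latent TGF-beta on fibrillin, read -0.05 and 0.03 in H520 control and SOX2 siRNA and 0.18 and 0.04 in LK2. Its differences were 0.08 and -0.14, with 0.02 and 0.15 by its 2 probes in H520 and -0.11 and -0.18 in LK2. ELN, the elastin core of the fibre, read -0.05 and -0.06 in H520 and 0.06 and 0.16 in LK2. Its differences were -0.01 and 0.10, and in H520 its 2 probes pointed opposite ways, at -0.18 and 0.16.

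Counted together, 0 members were at least 1.5-fold higher and 1 (FBN2) was lower in H520, where 0.806% of all genes were higher and 1.07% lower. In LK2, 1 member (EFEMP1) was higher and 1 (FBN2) lower, against 1.90% and 1.30% of all genes. FBN2 was 1 of 41 genes, or 0.217% of those measured, that were lower in both lines, and 0 members were higher in both, against 0.223% of all genes. Since the members were picked on these responses, the counts describe the choice and nothing is read from them. The other 7 members were inside 1.5-fold in both lines. The median difference of the 9 members was -0.01 in H520 and 0.10 in LK2, and that of all genes 0.00 in both. Signs were the same in both lines for 3 members (FBN2, EFEMP2 and FBLN2) and opposite for 6. The differences of 6 members in H520 and 7 in LK2 lay inside the SD between probes. The median absolute difference of all genes, 0.11 in H520 and 0.12 in LK2, lay inside it too. Nothing is therefore read from these counts. The share of all genes with opposite signs was not counted, so nothing is read from the signs.

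**Figure D2:**
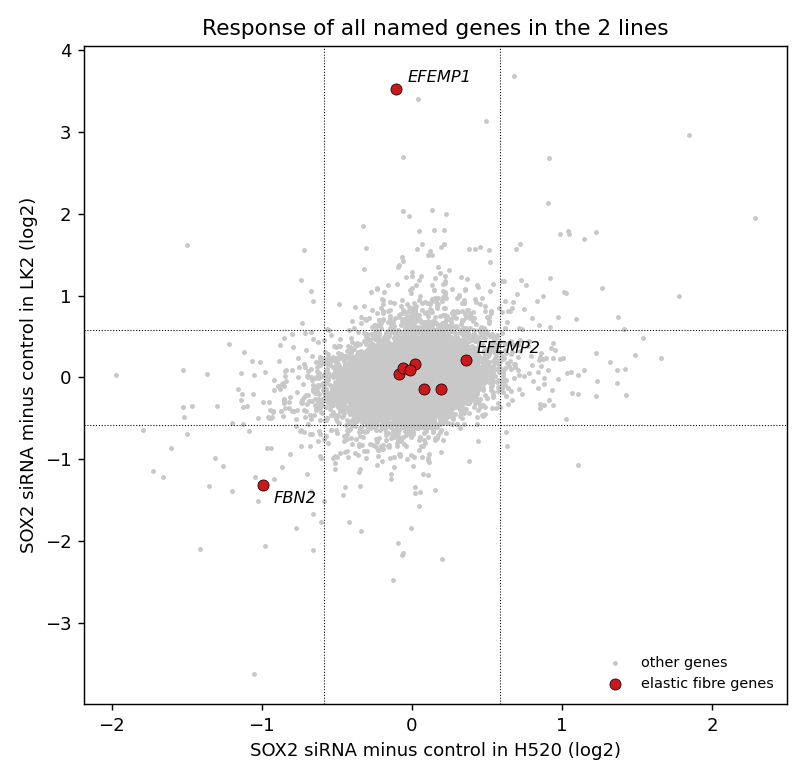
Log2 difference, SOX2 siRNA minus control, in H520 (horizontal) and LK2 (vertical) for all 18852 genes in grey and the 9 elastic fibre genes in red; dotted lines mark 1.5-fold. EFEMP1 lies at the top of the plot near 0 on the H520 axis, FBN2 lies beyond 1.5-fold in the lower left, and the other 7 lie inside the dotted lines.

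The difference between the lines was not used to choose the genes and was tested, except for EFEMP1. It was estimated over both siRNA treatments with limma, with siRNA as a block and Benjamini-Hochberg adjustment over all genes. Errors after ± are standard errors of that fit, and they rest on how far the siRNA responses of the lines differ, the 1 residual degree of freedom, moderated across genes. FBN2 was chosen for lower values in both lines. That choice can favour responses that differ little, so the error and p-value of FBN2 may be too small. Whether the lines were hybridised on the same BeadChip is not given in the sources used here, so chip and line cannot be told apart.

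FBLN2 was lower in LK2 than in H520 and FBN2 was higher. As the mean of its 3 probes, FBLN2 differed by -3.28 ± 0.10 on the log2 scale (adjusted p = 2.5e-05). The mean hid a split between probes. ILMN_1774602 read -0.01 in H520 control, 0.01 in H520 SOX2 siRNA, -4.95 in LK2 control and -4.90 in LK2 SOX2 siRNA. ILMN_2390919 read 0.03, -0.03, -4.84 and -4.72 in the same order. By these probes, both annotated to the transcript NM_001998, FBLN2 was 30.4-fold and 27.4-fold higher in H520 (log2 differences of -4.93 ± 0.12 and -4.78 ± 0.12, limma over probes, adjusted p = 1.8e-07 and 2.0e-07). The probe annotated to NM_001004019, ILMN_1721769, read 0.04 and 0.13 in H520 and -0.20 and 0.12 in LK2, a difference of -0.12 ± 0.12 (adjusted p = 0.538). The LK2 and H520 arrays did not overlap for the NM_001998 probes and overlapped for the other. Whether that other probe detects its transcript in either line was not tested.

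FBN2 differed by 2.75 ± 0.12, or 6.73-fold, with LK2 higher (limma, adjusted p = 5.6e-05, possibly too small because of how FBN2 was chosen). The difference was 2.91 on the control arrays and 2.59 on the SOX2 siRNA arrays, so LK2 with SOX2 siRNA still stood above H520 with control siRNA. Of all genes, 65 had a larger excess in LK2 by this measure, and 33 a larger excess in H520 than FBLN2.

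For EFEMP1 the difference between the lines was 0.63 on the control arrays, 4.26 on the SOX2 siRNA arrays and 2.45 on average. The average draws on the LK2 SOX2 siRNA array for which the gene was chosen, so it is given with no test.

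The other 6 members differed between the lines by -0.00 to 0.20, with standard errors of 0.10 to 0.12, and did not pass the test (limma, adjusted p from 0.239 to 0.985). Of the 8 members other than EFEMP1, 1 was called higher in LK2 and 1 lower, where 14.0% and 13.4% of all genes were called. With probes tested separately, 1 probe of these members was called higher (FBN2) and 2 lower (both FBLN2), where 13.2% and 13.1% of all named probes were called. The median line difference was 0.12 over the 9 members and 0.01 over all genes.

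**Figure D3:**
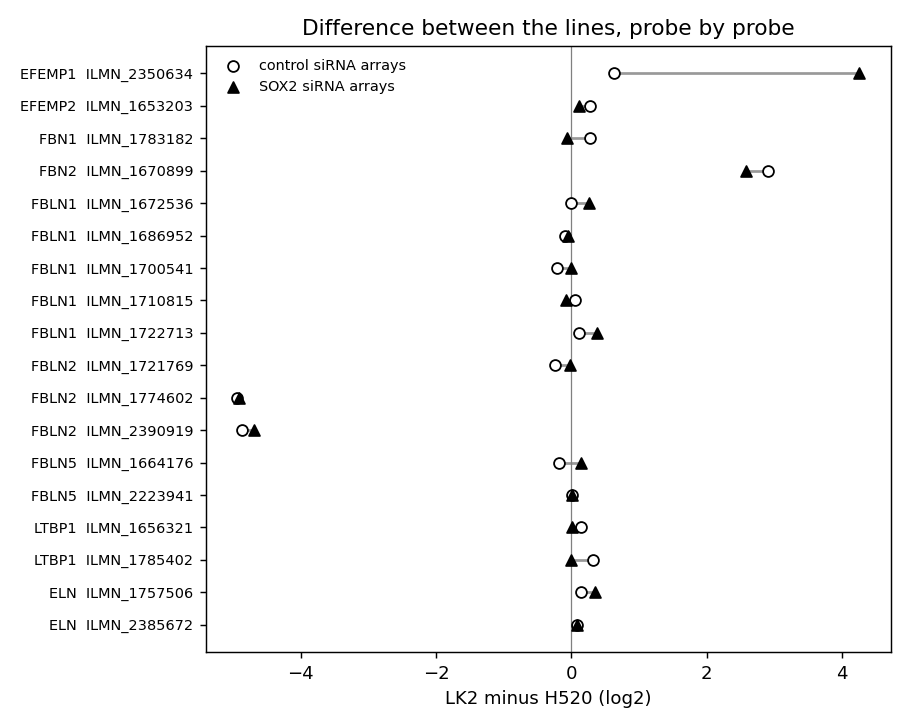
LK2 minus H520 (log2, horizontal axis) for each of the 18 probes; open circles are the control siRNA arrays, triangles the SOX2 siRNA arrays, and the grey bar joins the 2. FBLN2 has a pair of probes between -4.94 and -4.69 and 1 near 0, FBN2 lies between 2.59 and 2.91, and EFEMP1 runs from 0.63 to 4.26.

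The genes whose pattern over the 4 arrays was nearest to that of EFEMP1 were HDC, MYL10, ENTREP2, ENC1 and EDN3. Nearness was the Euclidean distance between the 4 values after the mean of each gene was subtracted, and it ran from 0.741 for HDC to 1.15 for EDN3. HDC, which makes histamine, was at -0.06 in H520 and 2.70 in LK2 with SOX2 siRNA, and EDN3, an endothelin, at 0.04 and 3.40. ENC1 was at -0.02 and 1.97. MYL10, at 0.68 and 3.69, and ENTREP2, at 0.91 and 2.68, were past 1.5-fold in H520 too, unlike EFEMP1. The genes nearest to FBN2 were CCDC3, LIN7A, KCNB2, UST and CPVL, at distances of 0.623 to 0.774. They shared mainly its line difference, between 2.35 and 2.75, while their siRNA differences ran from -0.57 to -0.34 in H520 and from -1.12 to -0.36 in LK2. None of the 5 was as low as FBN2 with the siRNA in either line.

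Other genes of the pathway were taken from 6 lists, of which 66 of 67 genes were measured. By limma over both lines, 0 of the 66 passed for the siRNA (background 0.00530% of all genes), with 4 at an unadjusted p under 0.05, or 6.06% against 8.40% of all genes. ADAMTSL2, which had 1 probe, had the lowest adjusted p, 0.119. With probes tested separately by limma it passed, at 0.0263. The values of ADAMTSL2 were the same in that fit, and only the moderation and the adjustment differed. It did not pass in the other limma fits, with an adjusted p of 0.0593 with a variance trend and 0.151 with the median of probes. It encodes a secreted glycoprotein that binds LTBP1 and fibrillin. ADAMTSL2 was higher with SOX2 siRNA by 1.05 in H520 and 1.75 in LK2, a mean of 1.40 ± 0.17. It was the 1 gene of the 66 past 1.5-fold in H520, or 1.52% against 1.87% of all genes. In LK2, 3 were, or 4.55% against 3.20%: ADAMTSL2, BGN and ITGAV.

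BGN, the proteoglycan biglycan of the matrix, read -0.47 and -0.24 in H520 and 0.75 and 2.75 in LK2. It was 3.99-fold higher with SOX2 siRNA in LK2 and 1.17-fold in H520, a mean log2 difference of 1.11 ± 0.37 that did not pass (limma, adjusted p = 0.49). ITGAV, an integrin chain shared by several of the receptors that bind fibrillin or latent TGF-beta, was at 0.06 in H520 and -0.60 in LK2 (limma, adjusted p = 0.769). The median differences of the lists were small. Over 20 microfibril and elastin assembly genes they were 0.07 in H520 and -0.01 in LK2, over 8 crosslinking enzymes 0.10 and 0.01, and over 9 ADAMTS-like and ADAMTS genes -0.10 and 0.06. The 10 TGF-beta ligands and receptors had medians of -0.03 and 0.03, the 8 integrins 0.06 and -0.01, and the 11 elastases and inhibitors -0.09 and 0.03.

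**Figure D4:**
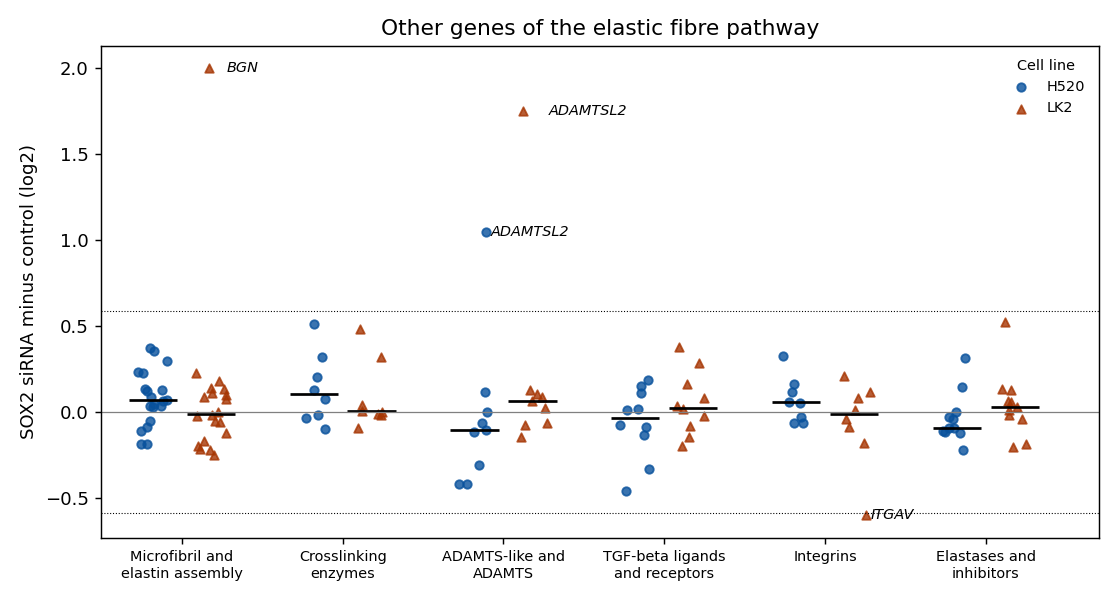
Log2 difference, SOX2 siRNA minus control, of the other pathway genes in 6 lists; blue circles are H520, orange triangles LK2, black bars the median of a list in a line, and dotted lines 1.5-fold. ADAMTSL2 is past 1.5-fold in both lines, BGN and ITGAV in LK2, and all list medians lie between -0.10 and 0.10.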

How the data were processed

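The authors deposited log2 values for 48801 probes on 4 arrays in the series value table. No source used here names the tools, background correction or genome build. The column means were equal, at 0.00475, with medians between -0.000497 and 0.00118, and values ran from -6.68 to 6.59. They were taken as normalised between arrays and centred per probe, on a reference that stays unknown and cancels in differences. No detection p-values were used. A table of scanner intensities held 4 value columns that match no label. No sample was assigned to them and no result uses them; they were read only to settle the log base: the best 2 matches between column differences had absolute correlations of 0.994 and 0.993 and slopes of 0.896 and 1.06, where natural logs would give 0.693 and log10 values 0.301.

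Probes were named from the platform annotation: 28096 had 1 symbol, 13 several and 20692 none listed. Probes of 1 gene were averaged. The members and lists were chosen with earlier results of these data known. Every member was named. Of other genes, those of the lists past 1.5-fold in a line, and the 5 nearest to EFEMP1 and to FBN2, were named. VCAN, TGFB2 and TGFBR3 fall outside this rule and were named for their line difference after the values were seen. Tests were two-sided, in limma 3.58.1 with R 4.3.3, with a threshold of 0.05 for adjusted p. The main fits by gene had 1 residual and 5.19 prior degrees of freedom, and the fits by probe 1 and 7.21. Prior degrees of freedom differed again in the other fits, and those with no replicate block had 2 residual. The fit of the line difference was checked on simulated data. Arrays are paired by the cell line in the labels. Single lines had no test, and 1.5-fold was the count threshold, with 2-fold as an alternative. Nothing says whether arrays came from separate cultures, so p-values measure only the spread between these arrays. Python 3.11.15 was used for tables.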

Additional observations from a re-analysis of the deposited data

Results flagged for a closer look

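With SOX2 siRNA, 6 of the 9 members went in opposite directions in H520 and LK2. Among the other pathway genes past 1.5-fold in a line, ITGAV did so. Pathway genes inside 1.5-fold in both lines were left out here. The share of all genes with opposite directions was not counted, so nothing is read from the 6. Each line gave 1 pair of arrays, so none of these differences between the lines was tested. SOX2 itself was less reduced in H520 than in LK2. Among these genes with opposite directions, EFEMP1 had the widest gap between the responses, LK2 minus H520, at 3.63 on the log2 scale. ITGAV followed at -0.66. Genes with the same direction in both lines, such as BGN and ADAMTSL2, were not ranked here. The gaps of FBN1 (-0.33), LTBP1 (-0.23), FBLN5 (0.17), FBLN1 (0.13) and ELN (0.11) came from responses inside 1.5-fold in both lines.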

How the results depend on the processing

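The members' siRNA differences kept their size within the SD between probes in 61 of 64 recalculations, and the other 3 were single probes of FBLN1 in H520 (0.11, 0.10 and -0.31). Many of these could hardly move. For members with 1 or 2 probes the median of probes equals the mean, and the median differences subtracted were 0.0024 in H520 and -0.0031 in LK2. EFEMP1 and FBN2 had 1 probe each, so the recalculations are no check of their responses. A 2-fold threshold left 33 higher and 37 lower genes in H520, 94 and 52 in LK2, and 0 members were lower in H520, since FBN2 lay just inside 2-fold. Counted by probe, 253 were higher and 329 lower in H520 and 609 and 407 in LK2. The siRNA fit of limma called 1 gene higher and 0 lower, with 1584 at an unadjusted p under 0.05. It called 25 and 26 with probes tested separately, 10 and 12 with a variance trend, 0 with no replicate block (148 at an unadjusted p under 0.05) and 0 among genes above the median line difference (863). For the line difference, 2 members passed as higher in LK2 with a variance trend, and by probe 2 higher and 2 lower. Both higher counts include EFEMP1, which was chosen on 1 of the arrays averaged, so its passing is not read as a result. With no replicate block its calls were 2202 higher and 2095 lower against 2638 and 2522, and FBN2 and FBLN2 still passed. Signs turned for members near 0: FBN1 (-0.060 on the SOX2 siRNA arrays), FBLN1 (-0.027 on the control arrays and -0.072, -0.102 and -0.011 by probe) and FBLN5 (0.011 by probe and 0.081 on the SOX2 siRNA arrays). FBLN2 lost its call by the probe ILMN_1721769 (-0.12). The cause of these changes was not tested. No signal over background could be read, so the smallest detectable difference is unknown.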

Other observations

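Between the lines, 18 of the 66 other pathway genes passed the limma test, 11 higher in LK2 and 7 higher in H520. That is 27.3%, against 27.4% of all genes. The following were chosen after their values were seen. VCAN, the matrix proteoglycan versican, was higher in LK2 by 1.36 ± 0.12 (limma, adjusted p = 0.000601), and BGN by 2.11 on average. The BGN difference was 1.22 on the control arrays and 2.99 on the SOX2 siRNA arrays. BGN is among the 11, but its average draws on the LK2 SOX2 siRNA array for which it was named above. Its passing is therefore not read as a result. TGFB2, a TGF-beta ligand, was lower in LK2 by a log2 difference of -1.83 ± 0.13 (adjusted p = 0.000322). Its co-receptor gene TGFBR3 was also lower in LK2, at -1.56 ± 0.10 (adjusted p = 0.000197).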
